A study of Mus musculus with 2 samples.

Results

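The genes described are the lysosome, autophagy and endosomal sorting genes of 2 mouse lymphomas. They were chosen by symbol alone, as every gene of the deposited expression table named for the vacuolar proton pump (Atp6v and Atp6ap), a cathepsin (Cts and 1 letter), Lamp, Lamtor, Atg, Gabarap, Map1lc3, Vps, Chmp or Snx. The rule found 85 genes among the 8249 of the table, and all 85 reached at least 1 FPKM in at least 1 library. RefSeq lists 152 protein-coding mouse genes with such symbols, and the table has no row under the symbols of the others. Every gene of the table has a value above 0 in both tumours. A gene at 0 in either tumour is thus missing from the members, the other lists and the share of all genes. Both tumours arose in mice of the strain labelled L-DKO. The title of the series describes such mice as rich in E proteins, transcription factors of early T cell development. Both were negative for the CD1d tetramer, a reagent that stains invariant natural killer T cells. The first, named the gut lymphoma here, grew in a Peyer's patch, a lymphoid organ of the gut wall, of a mouse aged 26 weeks. The other, the thymic lymphoma, grew in the thymus of a mouse aged 30 weeks. The labels used here give no alleles, no driver of a deletion and no treatment, and no normal tissue was compared. The labels' protocol names lysed tumour tissue as the source of RNA, whereas their sample names and the series text speak of lymphoma cells, sorted according to the latter. With 1 library per tumour no difference below has a replicate check or a p-value, and tumour site, mouse and age cannot be told apart. Values are FPKM, fragments scaled to transcript length and library size. They were recovered from deposited values read as log2(FPKM + 1), which the range of those values led to and no source states. A difference is log2(FPKM + 1) of the gut lymphoma minus that of the thymic lymphoma. Genes with a difference of at least 2 in size, which is 4-fold, were called apart. Folds between the tumours are of FPKM + 1, and ratios between genes within a library are of FPKM.

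Lysosomes are acidic organelles in which cathepsins and other hydrolases digest proteins, lipids and sugars. The vacuolar ATPase (V-ATPase) acidifies them. Its V1 sector in the cytosol splits ATP, and its V0 sector in the membrane carries protons. Autophagy brings cytoplasm to the lysosome in a double membrane that ATG proteins build and that ATG8 proteins, such as LC3 and GABARAP, coat. Endosomal cargo is either recycled by retromer and sorting nexins, or taken into internal vesicles by ESCRT complexes and delivered by tethering complexes such as HOPS. T cells use these routes to recycle the antigen receptor and to survive after activation.

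As a group the 85 genes lay on both sides of 0, and a smaller share of them was apart than of all genes. Their median difference was 0.06, against 0.05 for all 8245 genes kept. Of the 85, 44 were above 0 and 41 below. At 4-fold, 12 (14.1%) were apart, against 19.9% of all genes. The 4 higher in the gut lymphoma make 4.71%, against 7.84% of all genes, and the 8 higher in the thymic lymphoma make 9.41%, against 12.0% of all genes. At 2-fold, 39 members (45.9%) were apart, against 50.2% of all genes. The SD of the differences was 1.25 over the members and 1.63 over all genes. Across the 85 genes Pearson's r between the libraries was 0.69 and Spearman's rho 0.67, as a description of 2 libraries that share a pipeline, against 0.69 and 0.62 over all genes. Scaling both libraries to the same summed FPKM, or using the authors' standard scores on a log2 scale, moved the median difference of all genes to 0.57 and 0.48. The highest gene of each library held 8.17e+05 of 3415190 summed FPKM in the gut lymphoma and 1.65e+06 of 4969541 in the thymic lymphoma. To set scores on a log2 scale, their difference was multiplied by the mean SD of the 2 libraries. With the same total, 9 members were at least 4-fold higher in the gut lymphoma and 2 in the thymic lymphoma, and with the rescaled scores 10 and 2 passed the same limit of 2.

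The families within the group differed from each other. The V0 sector of the V-ATPase was higher in the gut lymphoma in each of its measured genes, whereas ATG8 (2 of 3 genes) and LAMP and Ragulator genes (3 of 4) were mostly higher in the thymic lymphoma. The ATG genes had a median below 0 but were split, with 4 above and 5 below. The 5 V0 and accessory genes had a median difference of 1.23 and the 8 V1 genes 0.51. The 3 ATG8 genes had a median of -1.02, the 9 ATG genes -0.81, and the 4 LAMP and Ragulator genes -0.81. Relative to the median of all genes, these medians kept their direction under every pseudocount, filter and scaling run. They ranged from 1.12 to 1.40 for V0 and accessory genes and from 0.42 to 0.47 for V1. For ATG8 the range was -1.23 to -1.02, for ATG -1.04 to -0.82, and for LAMP and Ragulator -0.89 to -0.77. Cathepsins (-0.14), the retromer core (-0.44), SNX-BAR sorting nexins (-0.04) and the other sorting nexins (-0.42) had medians below 0 as deposited. Scaled to the same total they turned above 0, at 0.39, 0.08, 0.49 and 0.11, while the median of all genes rose to 0.57. Relative to the median of all genes, these families also kept their direction. Their ranges were -0.23 to -0.17, -0.50 to -0.44, -0.10 to -0.08 and -0.48 to -0.34, in the same order. Each family holds 3 to 9 genes, and how far 2 tumours of the same site would differ was not tested.

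**Figure D1:**
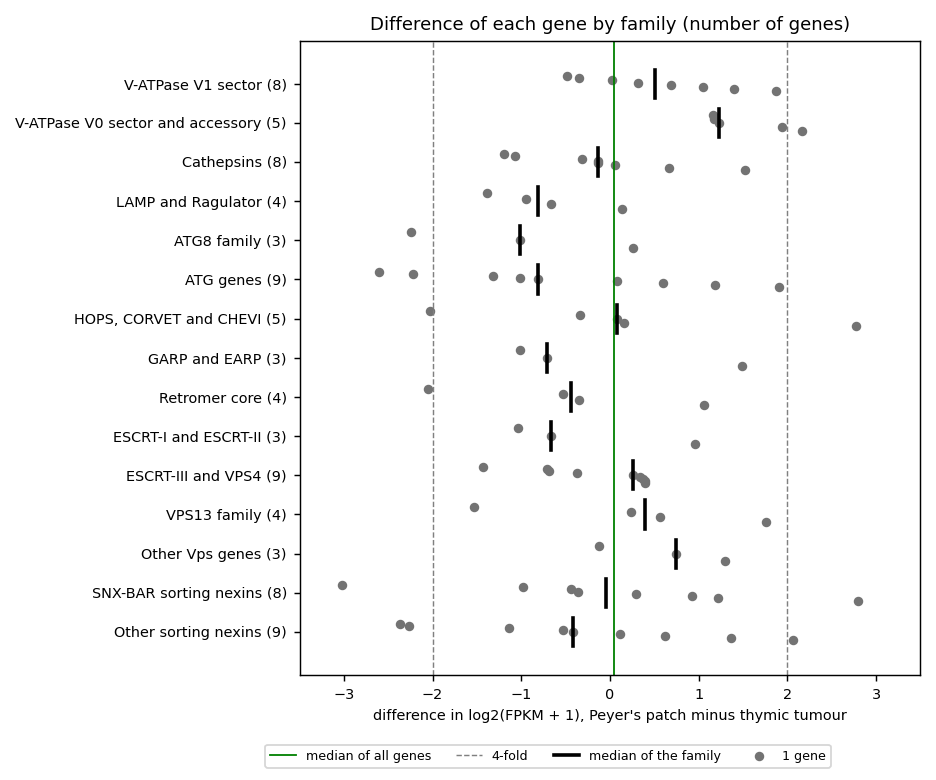
Difference in log2(FPKM + 1), gut (Peyer's patch) minus thymic lymphoma, for each of the 85 genes (grey points) by family, with the number of genes in brackets, the family median (black bar), the median of all genes (green line, 0.05) and 4-fold (dashed lines). The 5 V0 and accessory genes lie between 1.16 and 2.17, whereas the 9 ATG genes spread from -2.60 to 1.91.

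Many lysosomal genes are controlled through the CLEAR element, whose core is CACGTG and which the factors TFEB and TFE3 bind. RefSeq promoter windows of the build GRCm38.p6, from 250 bases before to 50 after each annotated start, were matched by symbol for 63 of the 85 genes. CACGTG, which reads the same on both strands, was present in 15 of the 63 (23.8%), against 12.6% of the 5926 genes of the expression table with a window and 8.09% of all 27025 genes of the promoter table. The longer form TCACGTGA, which contains the first motif and also reads the same on both strands, was present in 8 of the 63 (12.7%), against 2.67% and 1.12%. CACGTG was present in 7 of 18 lysosome genes, 3 of 10 autophagy genes and 5 of 35 endosomal sorting genes. The E-box CAGCTG, which E proteins bind and which overlaps neither of the other motifs, was present in 9 of the 63 (14.3%), against 16.3% and 18.3%. CAGCTG was present in 5 of 18 lysosome genes (27.8%), 2 of 10 autophagy genes (20%) and 2 of 35 endosomal sorting genes (5.71%). Where a gene had more than 1 start, a match in any window counted. Members with and without these letters are compared after the sequences, which are shown because the 8 genes span the families described below. Capitals mark TCACGTGA, and each line is 60 bases, 5′ to 3′ on the strand of the gene.
Atp6v1a, chr16:44139358-44139417, minus strand: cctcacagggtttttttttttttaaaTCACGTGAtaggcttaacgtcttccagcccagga
Atp6v0e, chr17:26676372-26676431, plus strand: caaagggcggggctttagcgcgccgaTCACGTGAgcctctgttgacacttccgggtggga
Ctsa, chr2:164833734-164833793, plus strand: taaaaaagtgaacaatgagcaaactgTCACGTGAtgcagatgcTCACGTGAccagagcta
Ctsd, chr7:142387893-142387952, minus strand: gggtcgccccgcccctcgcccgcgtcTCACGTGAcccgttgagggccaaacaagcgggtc
Atg3, chr16:45158731-45158790, plus strand: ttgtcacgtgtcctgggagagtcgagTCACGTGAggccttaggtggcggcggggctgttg
Vps16, chr2:130424275-130424334, plus strand: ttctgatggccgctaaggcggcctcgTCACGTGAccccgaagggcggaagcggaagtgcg
Vps33a, chr5:123572995-123573054, minus strand: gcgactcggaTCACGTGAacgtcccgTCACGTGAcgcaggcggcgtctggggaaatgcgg
Vps26a, chr10:62486717-62486776, minus strand: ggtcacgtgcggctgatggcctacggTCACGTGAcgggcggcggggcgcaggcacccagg

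Genes with the motifs were found higher in either tumour. The 15 members with CACGTG had a median difference of 0.08 and ranged from -2.05 to 1.52, and the 48 without it had a median of -0.04 and ranged from -3.02 to 2.80. The 8 with TCACGTGA split into 4 above and 4 below 0, with Ctsa (1.52), Atp6v0e (1.17), Atp6v1a (1.05) and Vps33a (0.08) above and Ctsd (-0.13), Vps16 (-0.34), Atg3 (-0.81) and Vps26a (-2.05) below. The 9 members with CAGCTG had a median of -0.67, with 3 above and 6 below 0, and the 54 without it had a median of 0.08. At 4-fold, 0 of the 9 were apart, against 19.9% of all genes. Ctsa and Vps33a each hold the longer form at 2 places within the 60 bases shown. Of the 9 members past 4-fold that have a window, only Vps26a holds CACGTG. Vps39, Atg16l1 and Snx15, also past 4-fold, have no entry.

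In the V-ATPase, 11 of 13 genes were higher in the gut lymphoma, against 4238 of all 8245 genes. At 4-fold, 1 gene (7.69%) was higher there, close to the 7.84% of all genes. Atp6v0c, the proteolipid that forms most of the proton-carrying ring, was at 146 FPKM in the gut lymphoma and 31.8 in the thymic lymphoma, a difference of 2.17. Atp6v0c has 2 annotated pseudogenes, Atp6v0c-ps1 and Atp6v0c-ps2, with which it may share reads. The small membrane subunit Atp6v0e was the most abundant of the 13 in both tumours, at 431 and 190 FPKM. Atp6v0a2, an isoform of the subunit that holds the proton channel and anchors the V1 sector, was at 18.2 and 7.60 FPKM. Both accessory proteins followed, Atp6ap1 at 77.5 and 32.4 FPKM and Atp6ap2, also known as the prorenin receptor, at 26.9 and 6.24. The difference of 1.94 for Atp6ap2 lay just under 2, and passed it with a pseudocount of 0.1, the same total or the authors' scores. The 5 differences lie close together, with an SD of 0.48.

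The V1 sector was less uniform, with an SD of 0.84 over its 8 genes. Atp6v1f was farthest apart, at 168 FPKM in the gut lymphoma and 45.0 in the thymic lymphoma, a difference of 1.87 that passed 4-fold with the same total or the authors' scores. Atp6v1h, the regulatory H subunit, was at 80.8 and 29.9 FPKM. The catalytic A subunit gene Atp6v1a was at 69.0 and 32.8, and Atp6v1b2, its partner in the ATP-splitting ring, at 37.0 and 22.5. These 4 genes were higher in the gut lymphoma. Atp6v1e1 (97.1 and 77.7 FPKM) and Atp6v1c1 (79.8 and 78.8) lay within 1.25-fold. Atp6v1d of the central stalk (94.0 and 120 FPKM) and Atp6v1g1 of a peripheral stalk (30.3 and 42.7) were higher in the thymic lymphoma as deposited, but not with the same total. Summed over the 13 genes, the level was 1355 FPKM in the gut lymphoma and 718 in the thymic lymphoma.

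Cathepsins were split, with 3 of 8 higher in the gut lymphoma and 5 higher in the thymic lymphoma. At 4-fold, 0 of the 8 were apart, against 19.9% of all genes. Ctsa, a serine carboxypeptidase that protects the lysosomal enzymes beta-galactosidase and neuraminidase, was at 137 and 47.4 FPKM in the gut and thymic lymphomas. Ctsl, the cysteine protease that shapes the peptides shown by thymic epithelium, was at 89.4 and 56.4 FPKM. Ctss, which trims the invariant chain of MHC class II in antigen-presenting cells, went the other way, at 101 and 230 FPKM, and was the most abundant cathepsin of the thymic lymphoma. Ctss was thus 1.13 times Ctsl in the gut lymphoma and 4.09 times Ctsl in the thymic lymphoma. Cathepsins C (114 and 109 FPKM), D (60.9 and 66.8), Z (38.2 and 42.2) and B (65.9 and 82.5) lay within 1.25-fold, and Ctso, the least abundant, was at 3.48 and 8.37. Ctsd overlaps another coding gene on its strand, Gm49369. In bulk tissue, fewer cells of a type and less RNA per cell cannot be told apart.

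Markers of antigen-presenting and blood cells differed in the same direction as Ctss. The invariant chain gene Cd74 was at 59.2 FPKM in the gut lymphoma and 494 in the thymic lymphoma. Of 10 listed MHC class II genes 5 had values, with a sum of 336 and 1874 FPKM and 4 of 5 higher in the thymic lymphoma. Of 13 macrophage and monocyte markers 3 had values, summing to 277 and 758 FPKM, all 3 higher in the thymic lymphoma. Lyz2 held most of the latter sum, at 113 and 504 FPKM. The differences were -2.15 for Lyz2, -0.78 for Itgam and -0.53 for Cd68. Markers were compared as deposited only, without the scalings. Of 8 B cell markers 2 had values (1471 and 10052 FPKM), of 9 erythroid markers 4 (2425 and 96390), and of 6 neutrophil markers 1 (10.1 and 84.8), each higher in the thymic lymphoma. All 12 T cell markers had values, 11 of 12 were higher in the gut lymphoma, and their sum was 4802 FPKM there and 2742 in the thymic lymphoma. Of the fibroblast, epithelial and endothelial lists 1 marker each had a value, at 16 and 84.8, 65.1 and 59.6, and 157 and 80.3 FPKM. No dendritic cell marker was among the genes analysed. Every gene of the table had a value above 0 in both tumours, so no listed marker could be at 0. The series text speaks of sorted lymphoma cells, whereas the labels' protocol names lysed tumour tissue. The part of other cells in the values of the 85 genes was not tested.

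Genes of the lysosomal membrane were higher in the thymic lymphoma in 3 of 4 cases. Lamp1, a major glycoprotein that shields the membrane, was at 29.4 FPKM in the gut lymphoma and 78.7 in the thymic lymphoma. Its relative Lamp2, which also serves chaperone-mediated autophagy, was at 77.7 and 124 FPKM. Lamp2 thus exceeded Lamp1 in both tumours, 2.65 times in the gut lymphoma and 1.58 times in the thymic lymphoma. Lamtor1, the lipid-anchored base of the Ragulator complex that holds the growth regulator mTORC1 at the lysosome, was at 15.2 and 30.4 FPKM, and Lamtor3, another subunit, at 30.7 and 27.8. None of these 4 genes passed 4-fold, against 19.9% of all genes. The direction of Lamp1, Lamp2 and Lamtor1 was opposite to that of most V-ATPase genes of the same organelle.

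**Figure D2:**
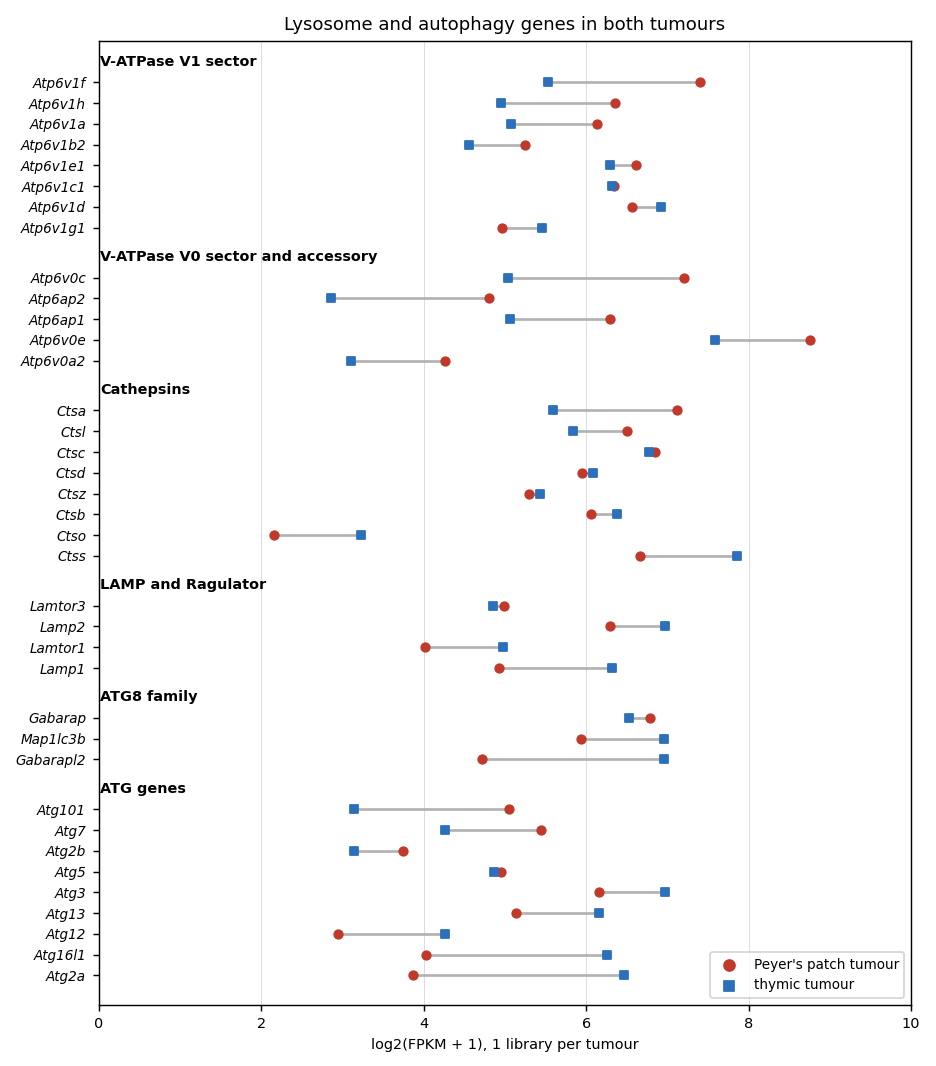
log2(FPKM + 1) of 25 lysosome and 12 autophagy genes in the gut (Peyer's patch) lymphoma (red circles) and the thymic lymphoma (blue squares), 1 library each, sorted within families by their difference. All 5 V0 and accessory genes have the red point to the right, and Gabarapl2, Atg16l1 and Atg2a have the widest gaps to the left.

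Among the ATG8 proteins, which coat the autophagosome and catch its cargo, 1 of 3 (33.3%) passed 4-fold, against 19.9% of all genes. Gabarapl2, also called GATE-16, was at 25.4 FPKM in the gut lymphoma and 124 in the thymic lymphoma, a difference of -2.24 that shrank to -1.71 with the same total. Map1lc3b, which encodes the common autophagy marker LC3B, was at 60.0 and 123 FPKM, and overlaps another coding gene, Gm20388, on its strand. Gabarap itself was at 109 and 90.8 FPKM. Gabarap was therefore 4.30 times Gabarapl2 in the gut lymphoma and 0.734 times it in the thymic lymphoma.

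The ATG genes spread over both directions, with 4 of 9 above 0 and 5 below. At 4-fold, 2 (22.2%) were apart, both higher in the thymic lymphoma, against 19.9% of all genes apart and 12.0% higher there. Atg2a, whose product carries lipid to the growing membrane, was at 13.6 FPKM in the gut lymphoma and 87.4 in the thymic lymphoma, a difference of -2.60 that stayed past 4-fold under all 8 alternatives run for single genes. No filter and the filter at 5 FPKM, which are among these alternatives, cannot change the difference of a single gene. The paralogue Atg2b was at 12.4 and 7.86 FPKM. The 2 paralogues were thus near equal in the gut lymphoma, and in the thymic lymphoma Atg2a was 11.1 times Atg2b. Atg16l1, which places the enzyme that lipidates ATG8 proteins, was at 15.3 and 75.2 FPKM, a difference of -2.22 that lay between -2.29 and -1.70 under the alternatives. Its binding partners are conjugated to each other, and both were lower than Atg16l1 in the thymic lymphoma, Atg5 at 29.8 and 28.1 FPKM and Atg12 at 6.71 and 18.2.

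The conjugation enzymes went opposite ways. Atg7, the activating enzyme, was at 42.6 FPKM in the gut lymphoma and 18.2 in the thymic lymphoma, and Atg3, which takes ATG8 proteins from Atg7, at 70.1 and 124. The subunits of the initiating ULK1 kinase complex also split. Atg101 was at 32.2 and 7.82 FPKM, and Atg13, with which Atg101 pairs, at 34.2 and 70.2. The difference of 1.91 for Atg101 lay just under 2, and passed it with a pseudocount of 0.1, the same total or the authors' scores.

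In the HOPS complex, which tethers late endosomes and autophagosomes to lysosomes, its specific subunits Vps39 and Vps41 were past 4-fold in opposite directions. Vps39 was at 120 FPKM in the gut lymphoma and 16.8 in the thymic lymphoma, a difference of 2.77 that stayed past 4-fold under all 8 alternatives. Vps41 was at 8.12 and 36.3 FPKM, a difference of -2.03, which lay between -2.15 and -1.41 under the alternatives and so was near the threshold. Vps39 was 14.8 times Vps41 in the gut lymphoma and 0.462 times it in the thymic lymphoma, and such ratios within a library do not change with scaling. The core subunits shared with the early endosomal complex CORVET differed little, Vps16 at 47.0 and 59.6 FPKM and Vps33a at 5.75 and 5.39. Vps33b, of the separate CHEVI complex, was at 24.1 and 21.5 FPKM. The level of Vps33b was 4.18 times that of Vps33a in the gut lymphoma and 3.99 times in the thymic lymphoma.

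The retromer core, which returns receptors from endosomes to the surface and the Golgi, differed in the order of its alternative VPS26 subunits. Vps26a was at 2.69 FPKM in the gut lymphoma and 14.3 in the thymic lymphoma, a difference of -2.05 that became -1.22 with the widest change among the alternatives. Vps26b was at 14.3 and 6.34 FPKM. Vps26b was 5.30 times Vps26a in the gut lymphoma and 0.445 times it in the thymic lymphoma. Vps35, the scaffold to which either binds, was at 27.7 and 35.6 FPKM, and Vps29 at 43.1 and 62.9. Both lay within 1.45-fold on FPKM + 1.

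**Figure D3:**
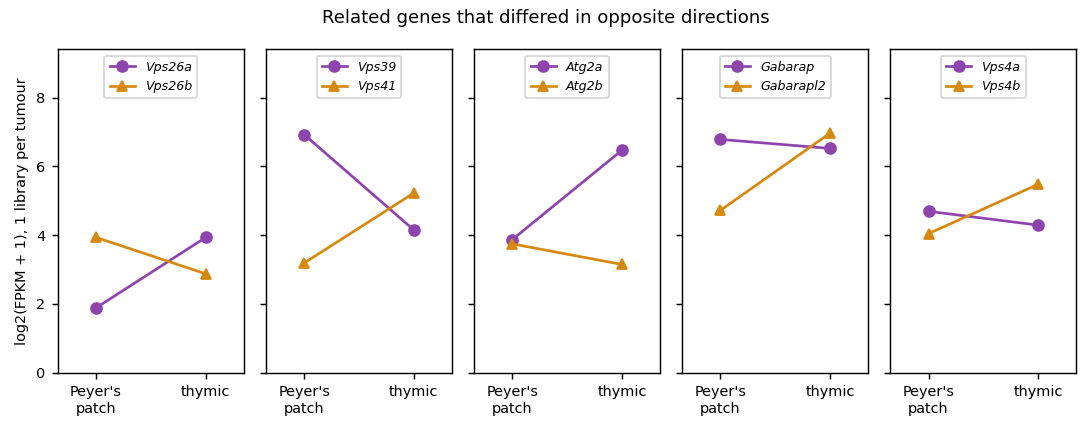
log2(FPKM + 1) of 5 pairs of related genes in the gut (Peyer's patch) and thymic lymphomas, 1 library each, with lines joining the values of 1 gene. Within each pair the genes differ in opposite directions, and the order of Vps26a and Vps26b, Vps39 and Vps41, Gabarap and Gabarapl2, and Vps4a and Vps4b is exchanged. The pairs were picked with their values known.

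The 12 ESCRT genes with Vps or Chmp symbols had 6 above 0 and 6 below. Of the 12, 0 were past 4-fold, against 19.9% of all genes. The SD of their differences was 0.73, against 1.57 for the 17 sorting nexins and 1.63 for all genes. The 13 ESCRT genes with other symbols were less even, with an SD of 1.38 and a range from -1.88 to 2.57. Of these 13, 2 (15.4%) were past 4-fold. Among genes of ESCRT-III, whose filaments cut membranes, Chmp2a was at 150 FPKM in the gut lymphoma and 125 in the thymic lymphoma, and Chmp4b, the main filament subunit, at 99.9 and 78.9. Chmp3 (46.3 and 35.7 FPKM) and Chmp6 (15.9 and 11.9) were also higher in the gut lymphoma, by at most 1.31-fold on FPKM + 1. In the other direction were Chmp2b (20.3 and 26.4 FPKM), Chmp5 (20.6 and 34.3) and Chmp7, which also works at the nuclear envelope (6.55 and 11.2). The paralogous ATPases that take the filaments apart exchanged order, Vps4a at 24.9 and 18.6 FPKM and Vps4b at 15.5 and 43.5. Vps4a was 1.61 times Vps4b in the gut lymphoma and 0.427 times it in the thymic lymphoma. Of the upstream complexes, the ESCRT-II subunits Vps25 and Vps36 were at 72.2 and 115 and at 21.1 and 10.3 FPKM, and the ESCRT-I subunit Vps37a at 5.04 and 11.4. Vps25 overlaps Ramp2, another coding gene, on its strand.

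Genes of the GARP and EARP complexes, which tether vesicles returning to the Golgi or to recycling endosomes, did not move together. Vps52 was at 12.8 FPKM in the gut lymphoma and 3.91 in the thymic lymphoma. Vps53 was at 53.7 and 88.4 FPKM, and overlaps Glod4, another gene of the table, on its strand. Vps54, which is specific to GARP, was at 5.82 and 12.8. The VPS13 proteins, long bridges that move lipids between membranes, had low levels with 1 exception. Vps13a was at 10.5 and 2.39 FPKM, Vps13b at 5.11 and 3.15, and Vps13c at 4.54 and 3.69. Vps13d, which acts at mitochondria and in their removal, was at 30.1 and 88.8 FPKM and was the only 1 of the 4 higher in the thymic lymphoma. Of the remaining Vps genes, Vps45, a regulator of SNARE fusion proteins, was at 77.6 and 45.9 FPKM and Vps9d1 at 51.9 and 56.5. Vps72 (135 and 54.2 FPKM) encodes a subunit of chromatin remodelling complexes that deposit a histone variant. Without it the median difference of the other members was 0.04, and the counts past 4-fold were the same.

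Sorting nexins, which bind endosomal lipids through a PX domain, held 5 of the 12 genes past 4-fold. These 5 are 29.4% of the 17 members, against 19.9% of all genes. Snx30 was at 158 FPKM in the gut lymphoma and 21.9 in the thymic lymphoma, a difference of 2.80 that stayed past 4-fold under all 8 alternatives and was the widest toward that tumour. Its partner Snx4, with which it recycles receptors and supports autophagy, was at 166 and 70.3 FPKM. Snx30 was thus 0.956 times Snx4 in the gut lymphoma and 0.312 times it in the thymic lymphoma. Snx33, a sorting nexin of endocytosis, was at 0.877 and 14.3 FPKM, the widest difference of the 85 at -3.02 and the only 1 past 8-fold. Its low value in the gut lymphoma makes the difference depend on the pseudocount, from -3.88 with 0.1 to -1.71 with 5.

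The nexins that work with retromer in membrane tubules were closer together. Snx5 was the most abundant of all 85 genes, at 510 FPKM in the gut lymphoma (rank 348 of 8249) and 657 in the thymic lymphoma (rank 230). Its paralogue Snx6 was at 47.0 and 24.3 FPKM, so that Snx5 was 10.9 times Snx6 in the gut lymphoma and 27.0 times in the thymic lymphoma. Snx2 (77.4 and 105 FPKM) and Snx1 (13.2 and 26.9), which pair with Snx5 or Snx6, were higher in the thymic lymphoma as deposited, and Snx1 also under every scaling run. Snx18, which also acts in autophagosome formation, was at 18.3 and 14.8 FPKM.

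Of the other sorting nexins, Snx15 was past 4-fold toward the gut lymphoma and Snx12 and Snx14 toward the thymic lymphoma. Snx15 was at 77.7 and 17.9 FPKM, a difference of 2.06 that dropped to 1.86 with a pseudocount of 5. Snx12 was at 3.29 and 19.7 FPKM, whereas Snx3, its close relative and a cargo adaptor of retromer, was at 265 and 246. Snx14, whose loss in humans causes a cerebellar ataxia with swollen lysosomes, was at 16.2 and 88.0 FPKM, and overlaps Gm20537, another coding gene, on its strand. With the same total or the authors' scores, Snx12 and Snx14 fell short of 4-fold. Snx27, which links cargo to retromer through a PDZ domain, was at 13.4 and 30.7 FPKM, Snx22 at 6.52 and 1.93 and Snx25 at 23.4 and 14.9. Snx10, which is needed for acid secretion by osteoclasts, was at 23.3 and 31.4, and Snx19 at 6.95 and 10.5.

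**Figure D4:**
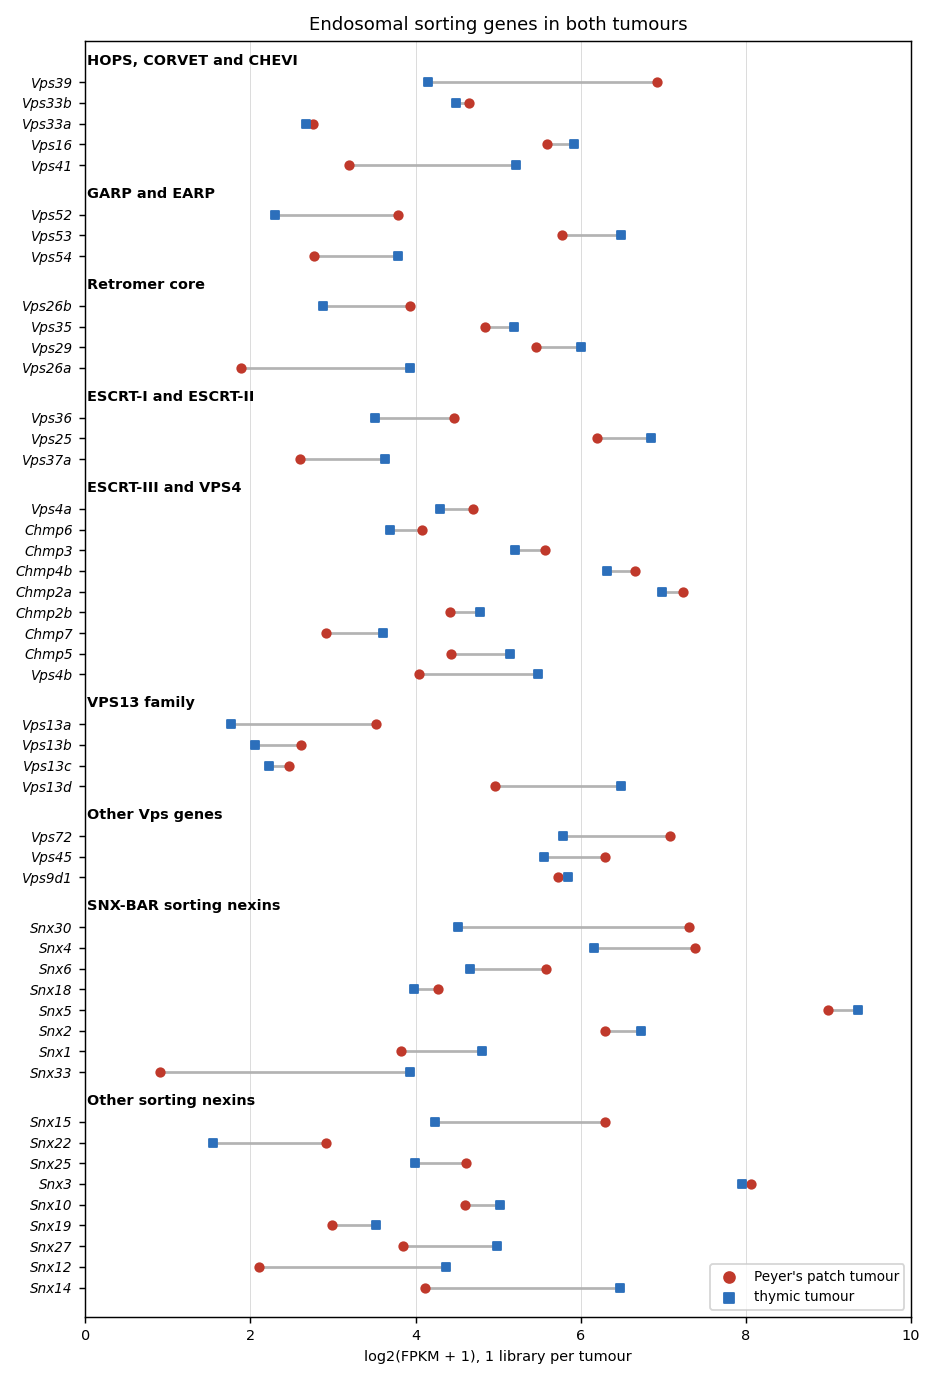
log2(FPKM + 1) of 48 endosomal sorting genes in the gut (Peyer's patch) lymphoma (red circles) and the thymic lymphoma (blue squares), 1 library each, sorted within families by their difference. ESCRT-III genes have short gaps, and Vps39, Vps41, Snx30 and Snx33 have long ones in opposite directions.

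Genes of the same routes outside the symbol rule were drawn from 7 lists, with 119 of 175 listed genes measured. Of the 119, 11 (9.24%) were at least 4-fold higher in the gut lymphoma, against 7.84% of all genes, and 15 (12.6%) in the thymic lymphoma, against 12.0%, both shares close to those of all genes. Their median difference was -0.02. Soluble lysosomal hydrolases (26 of 38) were split, with 3 (11.5%) and 6 (23.1%) past 4-fold, against 7.84% and 12.0% of all genes, and a median of -0.54. Glb1, the beta-galactosidase that Ctsa protects, was at 26.9 FPKM in the gut lymphoma and 2.08 in the thymic lymphoma. In the other direction were the sulfatase Arsb (58.7 and 735 FPKM), the acid lipase Lipa (1.19 and 22.7) and the ganglioside activator Gm2a (2.14 and 27.8). Lgmn, the protease legumain, was at 310 and 120 FPKM. Lysosomal membrane proteins (11 of 20) had a median of -0.30. Clcn7, the chloride-proton exchanger that works beside the V-ATPase, was at 28.1 and 477 FPKM and so went against the V0 genes, and the cation channel Tpcn1 was at 0.516 and 5.93. Higher in the gut lymphoma were Laptm5, which lowers antigen receptor levels in lymphocytes (747 and 231 FPKM), and Laptm4a (269 and 86.0).

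The mannose 6-phosphate route, which sends hydrolases to the lysosome, held both directions too (18 of 21 measured, median -0.27). Gnptg, a subunit of the enzyme that makes the tag, was at 52.8 FPKM in the gut lymphoma and 4.20 in the thymic lymphoma. The adaptors Ap1s3 (34.9 and 621 FPKM), Gga2 (7.69 and 80.9) and Ap3s2 (0.347 and 10.8) were higher in the thymic lymphoma. So was Ap1g1 (75.7 and 282), by less than 4-fold. Ap3m1 (62.2 and 13.2), an adaptor chosen after its value was seen, was past 4-fold toward the gut lymphoma. Over the list, 9 genes lay above 0 and 9 below. Past 4-fold were 2 (11.1%) toward the gut and 3 (16.7%) toward the thymic lymphoma, against 7.84% and 12.0% of all genes. In the TFEB and mTORC1 list (20 of 29, median 0.15), Mtor, the kinase itself, was at 109 and 4.50 FPKM, the widest positive difference of the 7 lists at 4.32. Sesn3, an inhibitor of mTORC1, was at 6.67 and 32.6 FPKM, while Rheb (132 and 171) and Sec13 (60.5 and 36.1) were within 2-fold. Tfe3, chosen after its value was seen as the only TFEB family gene measured, was at 3.78 and 13.9 FPKM.

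Autophagy genes without the Atg prefix (21 of 33 measured) had a median of 0.24. In each direction 1 gene (4.76%) was past 4-fold, against 7.84% (gut) and 12.0% (thymic) of all genes. Ambra1, an activator of the Beclin 1 complex, was at 98.8 FPKM in the gut lymphoma and 7.31 in the thymic lymphoma, and the cargo receptor Nbr1 at 76.3 and 338. Becn1, which encodes Beclin 1, was at 175 and 98.3 FPKM. All 13 other ESCRT genes were measured, with a median of 0.51. Mvb12a of ESCRT-I (40.1 and 5.93 FPKM) and Stam of ESCRT-0 (69.0 and 16.3) were past 4-fold toward the gut lymphoma, Snf8 of ESCRT-II was at 394 and 714, and Pdcd6ip, which encodes ALIX, at 99.1 and 69.3. In the list of WASH, tethering and BLOC genes (10 of 21, median 0.14), Dtnbp1 was at 37.7 and 7.69 FPKM, Hps5 at 3.28 and 37.6, the WASH subunit Ccdc53 at 148 and 47.2, and E430025E21Rik at 17.1 and 24.7. Bloc1s1 was listed at almost 0 in the gut lymphoma and at 64.7 FPKM in the thymic lymphoma, and an almost zero value can be a failed estimate.

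**Figure D5:**
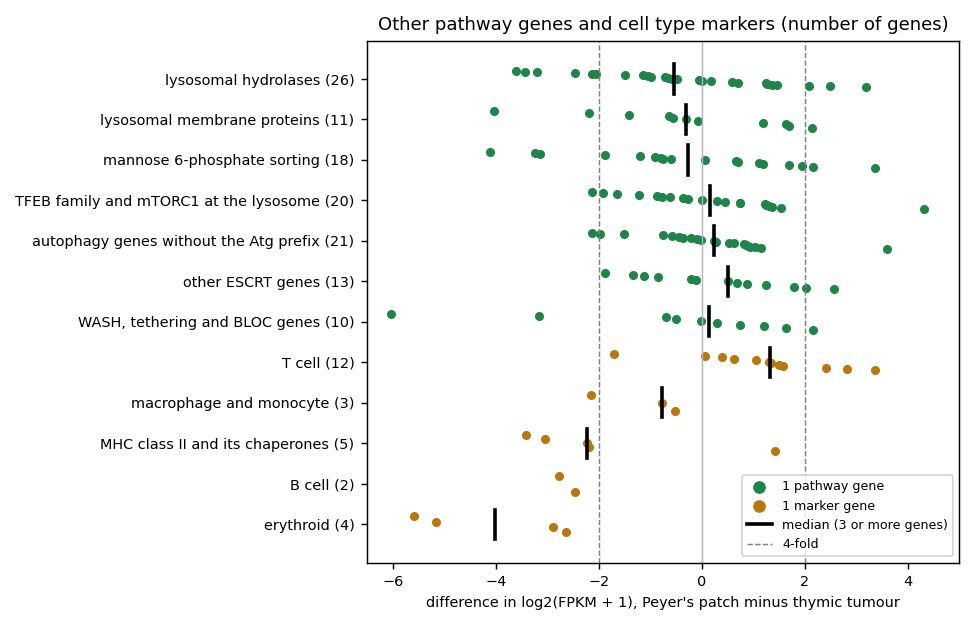
Difference in log2(FPKM + 1), gut (Peyer's patch) minus thymic lymphoma, of the 119 other pathway genes (green) and of T cell, macrophage, MHC class II, B cell and erythroid markers (brown), with list medians (black bars) and 4-fold (dashed lines). Pathway lists centre between -0.54 and 0.51, T cell markers at 1.32, and MHC class II and erythroid markers at -2.23 and -4.02.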

How the data were processed

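RNA of 2 tumours, 1 library each, was measured by RNA sequencing. Per the labels' protocols, RNA came from lysed tumour tissue and libraries were made with a stranded mRNA kit, whereas the series text speaks of sorted lymphoma cells. The submitters' processing notes name build mm9 and the tools TopHat, Cufflinks, Picard and GATK, without roles, and the sources used here give neither versions nor an annotation. Per the file headers the authors deposited FPKM and a standard score per gene. The FPKM columns hold log2 values made by the authors, read here as log2(FPKM + 1) from a maximum of 20.65 and a minimum of 6.99 steps of double precision. The deposited score is a straight line of that log2 value within each library. Without counts the depth is unknown and no counting interval can be given.

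FPKM was recovered as 2 to the power of the value, minus 1. Genes under 1 FPKM in both libraries (4 of 8249) were left out. Python 3.11.15, numpy 2.4.6 and pandas 2.3.3 were used, and the counting of differences was tested on simulated data. The share of all genes past the same fold serves as background. Named genes were members at least 4-fold apart, the 2 most abundant and the farthest apart of each family, and those next to 4-fold. The remaining members were named to account for each family after their values were seen. Of the other lists, the genes farthest apart past 4-fold and the 2 most abundant were named, except 1 gene that is not reported here. Members, families and lists were chosen with earlier results of these data known. GENCODE M21 and RefSeq, both on another build than mm9, were used for gene names, overlaps and promoter sequences. Alternatives were pseudocounts of 0.1 and 5, no filter or 5 FPKM, thresholds of 2-fold and 8-fold, 3 scalings, the deposited scores (their difference multiplied by the mean of the libraries' SDs), means in place of medians, and leaving out Vps72.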

Additional observations from a re-analysis of the deposited data

How the results depend on the processing

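Of 167 alternative values, 153 stayed close to the reported one, which means within 1.5 times for a count and within 1.5-fold of expression (0.58 on the log2 scale) for a median. Medians near 0 could turn sign within that limit. All 85 members passed the filter used, so the values without a filter equal the reported ones and could not move. The filter at 5 FPKM kept 84 members, so most of its values could not move either. The counts of close values and of kept signs include both settings. The 4 members higher in the gut lymphoma became 7 with a pseudocount of 0.1, 9 with the same total, 10 with the rescaled scores, 20 at 2-fold and 0 at 8-fold. The 8 members higher in the thymic lymphoma became 3 with a pseudocount of 5, 2 with the same total, 2 with the rescaled scores, 19 at 2-fold and 1 at 8-fold. Both scalings also moved all genes, from 7.84% and 12.0% past 4-fold to 14.6% and 7.80% with the same total and to 14.8% and 7.57% with the scores. With the scores the medians of V0 and accessory genes, of HOPS, CORVET and CHEVI genes and of VPS13 genes became 1.88, 0.73 and 1.33, and with means in place of medians GARP and EARP became -0.08. Of 135 family medians under an alternative, 125 kept the sign of the reported one. Besides the scalings named in the report, the scores turned cathepsins (0.25), SNX-BAR (0.38) and other sorting nexins (0.14) above 0 and the retromer core to 0.00. These families stayed below the median of all genes, which was 0.48 with the scores. Means turned ESCRT-III and VPS4 to -0.16 and SNX-BAR to 0.05. Of the 12 members past 4-fold, 4 stayed so under all 8 alternatives run for single genes (Atp6v0c, Vps39, Atg2a and Snx30). Among those alternatives, no filter and the filter at 5 FPKM could not change the difference of a single gene. The cause of these moves was not tested. No paired analysis was possible because each group has 1 library, and for the same reason no library could be left out. Without counts, differences between low values such as those of Snx33 and Vps26a are less certain than those between high ones.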
